A study of Mus musculus with 7 samples.

Results

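The naive pluripotency transcription factors are taken here as 10 genes: Nanog, Klf2, Klf4, Klf5, Esrrb, Tbx3, Tfcp2l1, Zfp42, Prdm14 and Gbx2. They were picked by gene symbol and not by a cutoff on a measured value, but with earlier results of these data known. All exon-level probe sets that the array platform assigns to those symbols were taken. That gave 125 of 1201338 probe sets. Tfcp2l1 stands in the platform annotation only under its older symbol Tcfcp2l1, so 9 of the 10 genes were found by their current symbol and Tfcp2l1 was reached through the RefSeq synonym. All 10 were among the 16353 genes tested, with 123 of their 125 probe sets bright enough to be kept. The cells were J-1 mouse embryonic stem cells, and every culture had been infected with a lentivirus carrying a short hairpin RNA (shRNA). Hairpin 1 against Mettl3 was given to 2 samples, hairpin 2 against Mettl3 to another 2, and a hairpin against luciferase, which mouse cells lack, to the 3 control samples. Mettl3 encodes the catalytic subunit of the m6A RNA methyltransferase, and the design asked how its loss of function affects gene expression. Uninfected cells are not among these samples, so luciferase stands for infected cells with an irrelevant hairpin. RNA of each sample went onto 1 Affymetrix Mouse Exon 1.0 ST array, and a gene value is the median of the gene's kept probe sets on the log2 scale. Since probes differ in brightness, levels are compared between arrays within a gene and not between genes.

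The naive state is the condition of the early epiblast that mouse embryonic stem cells keep in culture. Around the core factors Oct4 and Sox2 it is held by a set of partly redundant transcription factors, several of which are direct targets of outside signals. The cytokine LIF acts through STAT3 on Klf4, Klf5, Gbx2 and Tfcp2l1 and through phosphoinositide 3-kinase on Tbx3. Block of the FGF, MEK and ERK cascade favours Klf2 and Prdm14, and block of GSK3 relieves the repression of Esrrb by Tcf7l1. Nanog lies close to the core, and Zfp42, also called Rex1, is the customary marker of the state. As cells leave the naive state towards the formative state, most of these genes are shut off while Fgf5, Otx2, Pou3f1 and Dnmt3b come up.

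Median gene values were 8.17 to 8.30 on the 7 arrays, and no array duplicated another. Mettl3 itself was at 8.97 and 8.67 with hairpin 1, at 8.71 and 8.66 with hairpin 2, and at 10.38, 10.46 and 10.14 with luciferase, so neither hairpin overlapped luciferase. The 10 embryonic stem cell markers all passed the filter on dim probe sets and none was called by limma for the mean of both hairpins (1, Dppa5a, had an unadjusted p below 0.05, at -0.27). Pou5f1, which encodes Oct4, was at 12.64 and 12.57 with hairpin 1, at 12.56 and 12.53 with hairpin 2, and at 12.59, 12.87 and 12.62 with luciferase. Separate cultures are not stated in the labels. The p-values therefore reflect only how much these samples vary, possibly for technical reasons, and precision is limited by how few arrays there are.

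For the mean of both hairpins, 3 of the 10 naive factors were called at an adjusted p below 0.05 in the limma fit across all genes: Tbx3 and Gbx2 fell and Klf2 rose. The background was 7.90% of 16353 genes, of which 5.53% rose and 2.37% fell; with each array centred on its median gene value, 696 genes rose and 703 fell in place of 904 and 388. With hairpin 1 alone 2 factors were called, both lower (Tbx3 and Gbx2), against 5.89% of genes (3.97% higher and 1.93% lower). With hairpin 2 alone 3 were called, Tbx3 and Gbx2 lower and Klf2 higher, against 3.79% (2.71% higher and 1.08% lower). The 4 knockdown arrays did not overlap the 3 luciferase arrays for 5 of the 10 factors, against 21.8% of all genes (13.4% above and 8.40% below): Klf2 lay above, and Nanog, Tbx3, Prdm14 and Gbx2 lay below. The median log2 difference over the 10 factors was -0.09 for both hairpins, -0.19 for hairpin 1 and -0.03 for hairpin 2, beside 0.00045, -0.0056 and 0.013 over all genes tested. Each of the 3 comparisons uses the same luciferase arrays. In RNA from whole cultures, fewer cells in the naive state and less RNA per cell cannot be told apart.

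**Figure D1:**
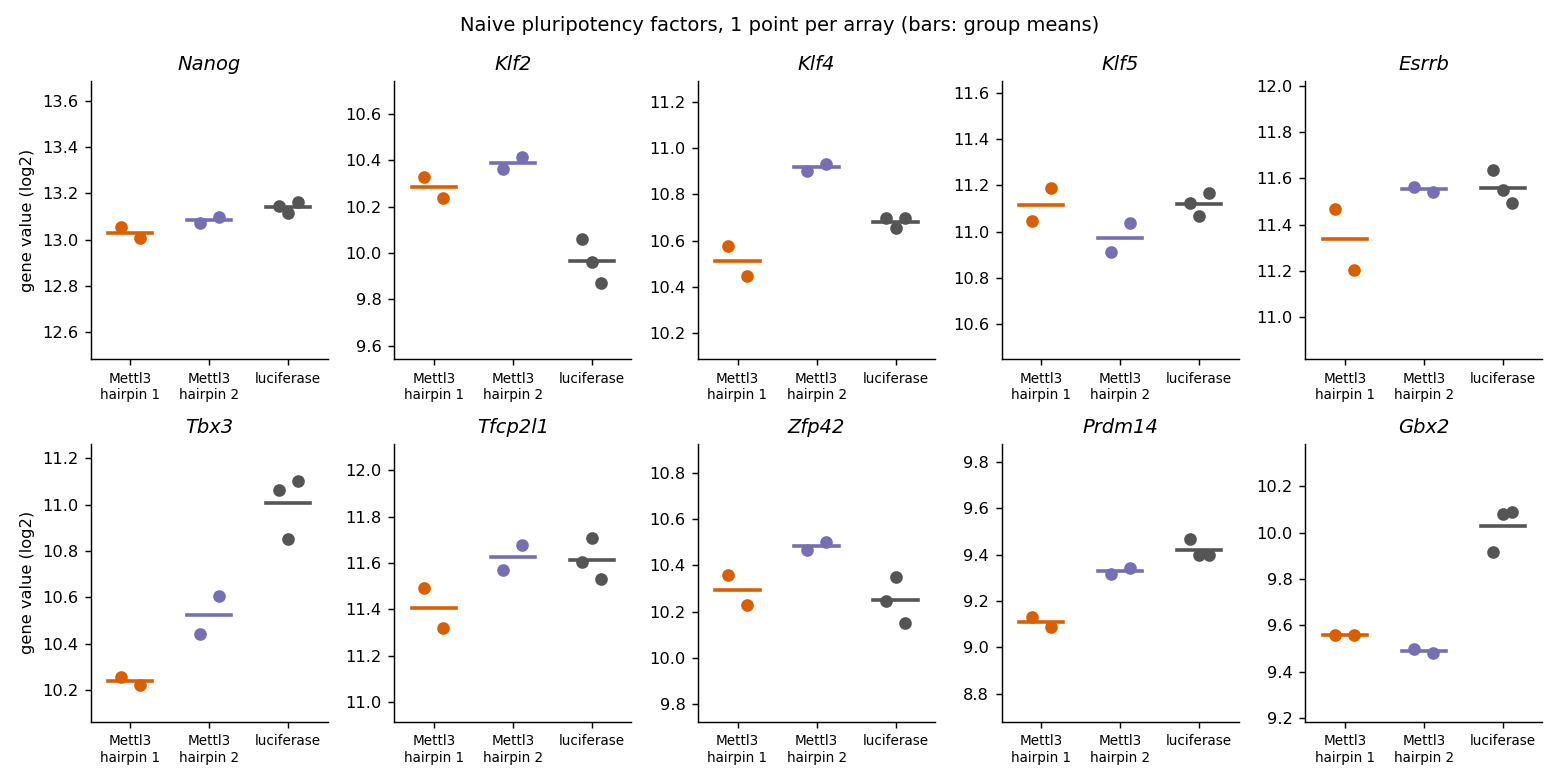
Gene value (log2) of each naive factor, 1 point per array and a bar at each group mean, with hairpin 1 and hairpin 2 (2 arrays each) left of luciferase (3 arrays); every panel spans its own range of levels. Tbx3 and Gbx2 lie below luciferase in all knockdown arrays and Klf2 above, while for Klf4 hairpin 1 lies below and hairpin 2 above luciferase.

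Tbx3, on chromosome 5, encodes a T-box repressor that helps stem cells to self-renew and is switched on by LIF. Its gene value was 10.26 and 10.22 with hairpin 1, 10.44 and 10.61 with hairpin 2, and 11.06, 10.85 and 11.10 with luciferase. The groups did not overlap, and their order was hairpin 1, hairpin 2, luciferase from low to high. Tbx3 fell 1.54-fold for the mean of both hairpins (log2 fold change -0.62 ± 0.0898, SE; limma adjusted p = 0.00355), by 0.77 on the log2 scale with hairpin 1 (adjusted p = 0.00429) and by 0.48 with hairpin 2 (adjusted p = 0.0393). The difference between the hairpins was -0.28 (95% interval -0.55 to -0.02) and did not pass the test across all genes (adjusted p = 0.527). With 1 array left out at a time the call for both hairpins held in 7 of 7 fits and that for hairpin 1 in 7 of 7. The call for hairpin 2 held only without luciferase replicate 2 (adjusted p = 0.0289) and was lost without any other array (adjusted p = 0.0535 to 0.225).

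Gbx2, on chromosome 1, encodes a homeobox factor that is a STAT3 target in these cells and later patterns the midbrain and hindbrain boundary. It was at 9.56 and 9.56 with hairpin 1, at 9.50 and 9.48 with hairpin 2, and at 9.92, 10.08 and 10.09 with luciferase. Arrays with the same hairpin nearly coincided, and all 4 knockdown arrays lay below the lowest luciferase array. Gbx2 fell 1.42-fold for both hairpins (-0.51 ± 0.0786, SE; limma adjusted p = 0.00492), by 0.47 on the log2 scale with hairpin 1 (adjusted p = 0.0188) and by 0.54 with hairpin 2 (adjusted p = 0.0141). The hairpins differed by 0.07 (95% interval -0.16 to 0.30). The call for both hairpins held with each array left out in turn. The call for hairpin 1 was lost without luciferase replicate 2 or 3 or either hairpin 1 array (adjusted p = 0.0504 to 0.0998), and that for hairpin 2 without either hairpin 2 array (0.101 and 0.140). The RefSeq sequence of the 250 bases before the Gbx2 start site (GRCm38.p6, chr1:89931177-89931426, minus strand) is shown because Gbx2 fell with each hairpin. Capitals mark a match to the GC box GGGCGG, the motif of Sp and Kruppel-like factors, searched on both strands.
Gbx2: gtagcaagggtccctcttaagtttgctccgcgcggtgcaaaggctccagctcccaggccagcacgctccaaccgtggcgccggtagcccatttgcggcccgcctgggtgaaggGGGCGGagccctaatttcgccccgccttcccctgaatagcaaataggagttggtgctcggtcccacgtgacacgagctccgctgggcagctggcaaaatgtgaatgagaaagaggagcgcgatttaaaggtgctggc
It holds 1 match, and 32.7% of 32851 windows of the same length hold at least 1. Motifs for STAT, ESRRB, T-box and octamer factors and a CACCC-type Kruppel-like factor motif were searched too. They had no match in this window or in the Klf2 and Klf4 windows below.

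Klf2, on chromosome 8, encodes a Kruppel-like factor that binds many of the same sites as Klf4 and Klf5 in these cells. Its value was 10.33 and 10.24 with hairpin 1, 10.36 and 10.41 with hairpin 2, and 10.06, 9.96 and 9.87 with luciferase. All 4 knockdown arrays were higher than the highest luciferase array, and the arrays of the hairpins lay next to each other without overlap. Klf2 rose 1.29-fold for both hairpins (0.37 ± 0.0802, SE; limma adjusted p = 0.0211) and by 0.42 on the log2 scale with hairpin 2 (adjusted p = 0.0418). With hairpin 1 it was 0.32 higher, which did not pass (adjusted p = 0.0826), and the difference between the hairpins was -0.10 (95% interval -0.34 to 0.13). Its call for both hairpins was the least stable of the 3. It was lost without luciferase replicate 2 (adjusted p = 0.0563) or 3 (0.0746), without the first hairpin 1 array (0.0630), and without either hairpin 2 array (0.0534 and 0.0815). The call for hairpin 2 alone was lost whichever array was left out (adjusted p = 0.0514 to 0.285). The difference stayed between 0.33 and 0.42 in those fits of both hairpins. The window before the Klf2 start site (GRCm38.p6, chr8:72318812-72319061, plus strand) is shown because Klf2 alone among the 10 factors rose. GC boxes are again in capitals.
Klf2: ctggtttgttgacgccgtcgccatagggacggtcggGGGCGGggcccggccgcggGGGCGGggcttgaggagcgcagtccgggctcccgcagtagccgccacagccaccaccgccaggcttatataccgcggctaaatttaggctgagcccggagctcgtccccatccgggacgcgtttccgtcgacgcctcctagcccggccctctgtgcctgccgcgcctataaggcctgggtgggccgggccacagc
There are 2 matches in it.

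Klf4, on chromosome 4, encodes the Kruppel-like factor used in reprogramming and is a target of LIF and STAT3. It was at 10.58 and 10.45 with hairpin 1, at 10.90 and 10.93 with hairpin 2, and at 10.70, 10.65 and 10.70 with luciferase. Hairpin 1 arrays lay below and hairpin 2 arrays above every luciferase array, so the mean of both hairpins was 0.03 from luciferase (95% interval -0.14 to 0.20; limma adjusted p = 0.833), or -0.024 after centring of the arrays. Neither hairpin alone passed the test (-0.17 with hairpin 1, adjusted p = 0.305; 0.24 with hairpin 2, adjusted p = 0.191). Hairpin 1 minus hairpin 2 was -0.41 ± 0.0987 (SE), with a 95% interval of -0.63 to -0.19 and an unadjusted p of 0.00219 from limma. Adjusted over all genes that p was 0.263, and in that comparison 17 genes, or 0.104%, were called and none of the naive factors. The window before the Klf4 start site (GRCm38.p6, chr4:55532476-55532725, minus strand) is given for comparison with Klf2, its paralogue. The GC boxes in capitals include a pair that overlap.
Klf4: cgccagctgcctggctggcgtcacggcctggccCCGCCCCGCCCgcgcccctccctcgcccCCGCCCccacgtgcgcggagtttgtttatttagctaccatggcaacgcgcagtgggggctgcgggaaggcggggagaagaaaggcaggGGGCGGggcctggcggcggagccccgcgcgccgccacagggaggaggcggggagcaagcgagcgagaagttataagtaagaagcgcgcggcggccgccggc
It holds 4 matches, the most among the windows of Klf2, Klf4 and Gbx2.

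Klf5, on chromosome 14, encodes the third Kruppel-like factor of the group and did not pass in any comparison. It was at 11.05 and 11.19 with hairpin 1, at 10.91 and 11.04 with hairpin 2, and at 11.13, 11.07 and 11.17 with luciferase. Hairpin 1 and luciferase overlapped, and both hairpin 2 arrays lay below luciferase. For both hairpins the difference was -0.07 (95% interval -0.25 to 0.10; limma adjusted p = 0.612). Klf2 was thus the only Kruppel-like factor among the naive factors that was called, and the 3 genes were not tested against each other.

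Prdm14, on chromosome 1, encodes a PR domain protein that represses FGF receptor signalling and DNA methyltransferase genes in naive cells. Its value was 9.13 and 9.09 with hairpin 1, 9.31 and 9.34 with hairpin 2, and 9.47, 9.40 and 9.40 with luciferase. The 3 groups did not overlap and stood in that order from low to high, with hairpin 2 close to luciferase (-0.09; adjusted p = 0.617). Prdm14 was -0.20 from luciferase for both hairpins (95% interval -0.36 to -0.04; limma adjusted p = 0.127) and -0.31 with hairpin 1 (adjusted p = 0.0681), and neither passed. It did pass for both hairpins when the probe sets were averaged by mean (adjusted p = 0.0230) or median polish (0.0208), and after quantile normalization (0.0443) or centring of the arrays (0.0462). With hairpin 1 it passed in 6 of 17 alternatives, under those same 4 settings, the stricter brightness filter and trended robust spreads (adjusted p = 0.00353 to 0.0437).

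Esrrb, on chromosome 12, encodes an orphan nuclear receptor, and Tfcp2l1, on chromosome 1, a Grainyhead-like factor; both can keep stem cells naive when overexpressed. Esrrb was at 11.47 and 11.21 with hairpin 1, at 11.56 and 11.54 with hairpin 2, and at 11.63, 11.55 and 11.49 with luciferase. Tfcp2l1 was at 11.49 and 11.32 with hairpin 1, at 11.57 and 11.68 with hairpin 2, and at 11.61, 11.71 and 11.53 with luciferase. For each gene the hairpin 1 arrays lay below all luciferase arrays and the hairpin 2 arrays lay among them. The hairpin 1 differences were -0.22 for Esrrb (limma adjusted p = 0.254) and -0.21 for Tfcp2l1 (0.267), against -0.01 (0.983) and 0.01 (0.969) with hairpin 2. Esrrb passed with hairpin 1 when its probe sets were combined by mean (adjusted p = 0.0254) or median polish (0.0392). Hairpin 1 minus hairpin 2 was -0.21 for Esrrb (adjusted p = 0.646) and -0.22 for Tfcp2l1 (0.625), so a difference between the hairpins was not shown.

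Nanog, on chromosome 6, encodes the homeobox factor for which the naive network is best known. It was at 13.05 and 13.01 with hairpin 1, at 13.07 and 13.10 with hairpin 2, and at 13.14, 13.11 and 13.16 with luciferase. All knockdown arrays lay below all luciferase arrays, yet the difference was small, -0.08 for both hairpins (95% interval -0.24 to 0.08; limma adjusted p = 0.517). Nanog also has processed copies elsewhere in the mouse genome, and whether its probes match them is not given in the sources used here. Zfp42, on chromosome 8, encodes the zinc finger protein Rex1 and was at 10.36 and 10.23 with hairpin 1, at 10.47 and 10.50 with hairpin 2, and at 10.25, 10.35 and 10.15 with luciferase. Its hairpin 2 arrays lay above luciferase. The first hairpin 1 array lay just above the highest luciferase array and the second among the luciferase arrays. For both hairpins Zfp42 was 0.14 higher without passing (95% interval -0.04 to 0.32; limma adjusted p = 0.333).

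Across the 10 factors, hairpin 1 arrays did not overlap luciferase for 8 genes, 7 of them lower and 1 higher, against 38.2% of all genes (17.3% lower and 20.9% higher). Hairpin 2 arrays did not overlap it for 8 genes, 5 lower and 3 higher, against 38.3% (15.4% lower and 22.9% higher). The mean level over the 10 factors was 10.65 to 10.73 with hairpin 1, 10.81 to 10.86 with hairpin 2 and 10.87 to 10.90 with luciferase. No factor passed the limma test of hairpin 1 against hairpin 2 after adjustment, and 3 (Tbx3, Klf4 and Prdm14, all lower with hairpin 1) had an unadjusted p below 0.05. How many of all genes had one was not counted. The median of hairpin 1 minus hairpin 2 over the 10 factors was -0.20, beside -0.017 over all genes.

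**Figure D2:**
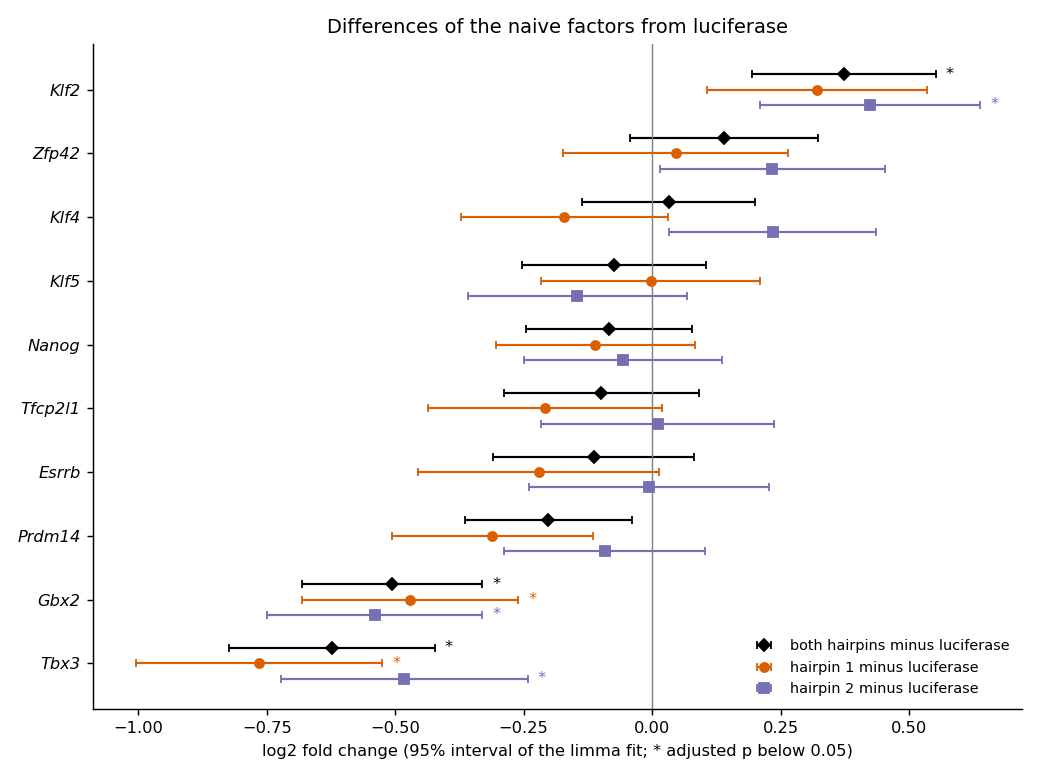
Log2 fold change of each naive factor from luciferase, with 95% intervals of the limma fit, for both hairpins (diamonds), hairpin 1 (circles) and hairpin 2 (squares); an asterisk marks an adjusted p below 0.05. Tbx3 (-0.62) and Gbx2 (-0.51) stand at the low end and Klf2 (0.37) at the high end, and the intervals of Klf4 for the 2 hairpins lie mostly on opposite sides of 0.

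An exon array reads each gene through several probe sets, so the gene values were set beside the single probe sets. These share the same RNA and are not replicates. For both hairpins, 14 of 19 Tbx3 probe sets and 4 of 9 Gbx2 probe sets were called lower when fitted singly, against 2.29% of all 229811 probe sets, and none of the other factors' probe sets was called. All 19 Tbx3 probe sets were lower, from -0.91 to -0.08, and for 17 of them the knockdown arrays lay below every luciferase array. That share was 8.40% among gene values and was not counted over all probe sets. With hairpin 1 alone 12 Tbx3 probe sets were called (background 1.37%), and with hairpin 2 alone none (0.414%). All 9 Gbx2 probe sets were lower as well, from -0.56 to -0.05. Of the 7 Klf2 probe sets, 6 were higher, by up to 0.45, and 1 was at -0.09; none was called singly.

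Most probe sets of the other factors repeated the order of the hairpins in the gene value. Of 13 Klf4 probe sets, 12 were lower with hairpin 1 and higher with hairpin 2. Hairpin 1 was below hairpin 2 in 15 of 15 Esrrb, 19 of 19 Tfcp2l1, 7 of 8 Prdm14, 7 of 8 Zfp42 and 9 of 11 Nanog probe sets. For Klf5, whose gene value was higher with hairpin 1, hairpin 1 was below hairpin 2 in 5 of 14 probe sets. All 15 Esrrb and all 8 Prdm14 probe sets were lower for both hairpins, with medians of -0.18 and -0.25. Zfp42 differed from its gene value: 7 of 8 probe sets were lower with hairpin 1 and 8 of 8 higher with hairpin 2, with a median over probe sets of 0.0024 for both hairpins. Of 14 Klf5 probe sets, 13 were lower for both hairpins, and Nanog was split, with 6 lower and 5 higher. No member probe set was called between the hairpins, where none of the 229811 was.

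**Figure D3:**
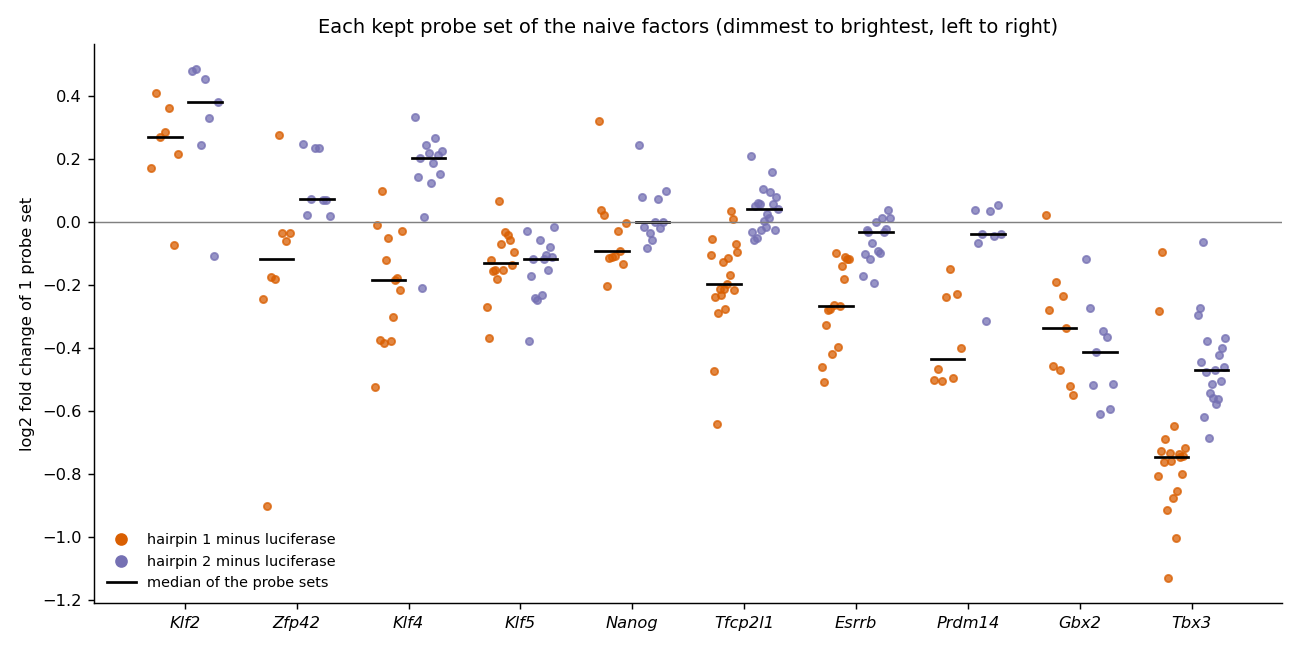
Log2 fold change from luciferase of each of the 123 kept probe sets, 1 point per probe set, hairpin 1 left of hairpin 2 within each gene, ordered from dim to bright, with a black line at the median. All Tbx3 points lie below 0 for both hairpins, and the medians of Klf4, Tfcp2l1, Esrrb and Prdm14 lie lower with hairpin 1 than with hairpin 2, with 1 probe set of Klf4 and 1 of Prdm14 the other way round.

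Whether the probe sets of a factor moved alike was tested with limma's diffSplice, which compares each probe set with the rest of its gene. None of the 10 factors was called, against 4.97% of genes. At an unadjusted p below 0.05 there were 2, a threshold for which the share of all genes was not counted. The smallest adjusted p were 0.0887 for Tbx3 and 0.213 for Klf2. Under the stricter brightness filter, without luciferase replicate 3 and without hairpin 1 replicate 2, 1 factor was called. Among single probe sets 1 of 123 was called, against 0.685% of all: a dim Tbx3 probe set (mean level 8.64, the 16th brightest of 19) at -0.08, which was 0.54 above the rest of the gene (adjusted p = 0.00688). The next was the second brightest Klf2 probe set, at -0.09 and 0.43 lower than the rest of Klf2 (adjusted p = 0.0583). On simulated data this test called 100% of 200 changed genes, but 34.0% of its calls were unchanged genes. How often it calls differences of the size seen in the 10 factors was not tested.

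The genes whose profiles over the 7 arrays were most like those of the 3 called factors were found by the root mean square difference of values centred on luciferase. Nearest to Tbx3 were Lgals3, which encodes galectin-3 (0.0705), Rerg, a Ras-like growth inhibitor gene (0.0838), and Enox1 (0.0854). The median over the genes compared, from which classes such as predicted genes and clones were left out, was 0.507. Nearest to Gbx2 were Tmem108 (0.0499), the peroxisomal oxidase gene Acox2 (0.0628) and Tvp23b (0.0639), with a median of 0.411. Nearest to Klf2 were Ninl (0.0314), Zswim1 (0.0344) and Pde12 (0.0374), with a median of 0.308. None of these genes is a member of the pluripotency lists described next. They were chosen for this likeness, so their direction is given by the choice.

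Genes around the naive factors were read from lists of gene symbols, also chosen with earlier results of these data known. Calls are for both hairpins, against the same background of 7.90%. Of 21 genes tested that encode signals upstream, 2 rose and 1 fell. Fgfr2, which encodes an FGF receptor, was at 7.60 and 7.60 with hairpin 1, at 7.75 and 7.95 with hairpin 2, and at 7.01, 6.95 and 6.80 with luciferase, and rose by 0.81 on the log2 scale (limma adjusted p = 0.000865). Il6st, which encodes the LIF co-receptor gp130, was 0.33 higher (adjusted p = 0.0369), and Smad7, an inhibitor of TGF-beta signalling, 0.32 lower (-0.32, adjusted p = 0.0359). The last 2 calls each held in only 1 of 7 fits with an array left out, whereas that of Fgfr2 held in all. The LIF receptor gene Lifr was at -0.05 (adjusted p = 0.819) and Stat3 at -0.21 (adjusted p = 0.206), and neither passed.

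Of 18 core pluripotency factors and partners tested, only Myc was called, lower by 0.43 on the log2 scale (-0.43 ± 0.0819, SE; limma adjusted p = 0.0115). Its call was lost without luciferase replicate 1 (adjusted p = 0.0624) or hairpin 2 replicate 2 (0.0536). Sox2 was at 0.02 (adjusted p = 0.947) and Pou5f1 at -0.12 (adjusted p = 0.446). The list's median was -0.07.

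Markers of the naive state that are no transcription factors moved both ways: of 14 tested, 1 rose and 3 fell, with a median of -0.15; over the 16 alternatives 1 rose and 1 to 6 fell. Dppa3, also called Stella, rose by 1.37 on the log2 scale (1.35 with hairpin 1 and 1.39 with hairpin 2). Ooep, a maternal effect gene, was at -0.50 (limma adjusted p = 0.00945), the F-box gene Fbxo15 at -0.50 (0.00848) and the junction gene Jam2 at -0.31 (0.0406). The call of Ooep was lost without luciferase replicate 1 (0.0503), and that of Jam2 held in 6 of the 16 alternatives, among the left-out arrays only without luciferase replicate 2.

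Of 18 formative and primed state genes, 5 rose and 2 fell, with a median of 0.11; over the 16 alternatives 1 to 6 rose and 0 to 4 fell. Sall2, a zinc finger gene, was at 0.67 (limma adjusted p = 0.0048), Fgf5 at 0.46 (0.0146), and the DNA methyltransferase gene Dnmt3b at 0.41 (0.0114), while Etv4, an ERK-responsive ETS gene, was at -0.43 (0.0086). Otx2, which marks the formative state, was at 0.05 (0.797). Fgf5 was not called with median polish of its probe sets (0.08, limma adjusted p = 0.351) or without the brightness filter (0.28, adjusted p = 0.127). Under a stricter brightness filter Fgf5 was at -0.08 and not called, and its call and that of Dnmt3b were lost without luciferase replicate 1 (0.0600 for Fgf5 and 0.0513 for Dnmt3b) or hairpin 2 replicate 2 (0.0638 and 0.0546). The other calls, Pou3f1 and Fgf15 higher and Dnmt3l lower, held in 2, 1 and 1 of the 7 fits with an array left out.

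Among the other Kruppel-like factors 3 of 13 rose and none fell, with a median of 0.08; over the 16 alternatives 2 to 4 rose and none fell. Klf7 was at 8.68 and 8.63 with hairpin 1, at 8.81 and 8.83 with hairpin 2, and at 8.30, 8.17 and 8.14 with luciferase (0.53; limma adjusted p = 0.0038). Klf6 was at 9.38 and 9.37 with hairpin 1, at 8.89 and 9.08 with hairpin 2, and at 8.60, 8.70 and 8.65 with luciferase (0.53; adjusted p = 0.00438). For both genes the knockdown and luciferase arrays did not overlap. Klf13 rose by 0.40 (adjusted p = 0.0159), and its call was lost without luciferase replicate 1 or 3, hairpin 1 replicate 1 or hairpin 2 replicate 2 (0.0513 to 0.0805). Nor was Klf13 called without the brightness filter (0.35, limma adjusted p = 0.0918) or with the stricter one (0.24, adjusted p = 0.0654). The relatives of the other naive factors, 15 tested, had no call. Their largest differences were 0.30 for Tbx6 (limma adjusted p = 0.100) and 0.24 for Prdm1 (0.133), the 2 with an unadjusted p below 0.05.

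Markers of other cell types were read beside these values, and their part in the results was not tested. None of 9 fibroblast feeder markers and none of 10 primitive endoderm markers was called; their largest differences were -0.19 for Pdgfrb (limma adjusted p = 0.241) and -0.29 for Pdgfra (0.0971). At an unadjusted p below 0.05 from limma, 1 feeder and 4 primitive endoderm markers were lower and none higher. The share of all genes at that threshold was not counted. The mean level of the feeder list was 7.29 to 7.46 with hairpin 1, 7.21 to 7.24 with hairpin 2 and 7.32 to 7.48 with luciferase, and that of the primitive endoderm list was 7.14 to 7.17 with hairpin 1, 7.18 to 7.20 with hairpin 2 and 7.24 to 7.30 with luciferase. Of 8 mesoderm markers Kdr alone was called (-0.44, adjusted p = 0.0323), with list means of 7.35 to 7.44 with hairpin 1, 7.40 to 7.43 with hairpin 2 and 7.41 to 7.56 with luciferase. No knockdown array had a higher mean than the highest luciferase array in any of these 3 lists. The call of Kdr held in 1 of 7 fits with an array left out. Over the 16 alternatives 0 to 1 mesoderm markers rose and 0 to 4 fell, no primitive endoderm marker rose and 0 to 2 fell, and no feeder marker was called.

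Of 7 neuroectoderm markers, 2 rose, Map2 (0.77) and Nes (0.46), and Sox1 fell (-0.39, limma adjusted p = 0.0488); the list mean was 7.94 to 7.94 with hairpin 1, 7.94 to 7.99 with hairpin 2 and 7.75 to 7.85 with luciferase. Of 8 trophectoderm markers, the simple epithelial keratin genes Krt18 (1.03) and Krt8 (0.81) rose. Krt18 was 1.42 higher with hairpin 1 and 0.64 higher with hairpin 2. Krt8 was 1.18 higher with hairpin 1 and 0.43 higher with hairpin 2, and the test between hairpins passed narrowly (adjusted p = 0.0438 for Krt18 and 0.0448 for Krt8). No gene at all passed that test without the filter on dim probe sets or without hairpin 2 replicate 2. For both hairpins, the calls of Map2, Krt18 and Krt8 held with each array left out, those of Nes in 3 and of Sox1 in 1 of 7 such fits, and Nes was at -0.15 under the stricter filter. The trophectoderm list mean, which includes Krt18 and Krt8, was 8.05 to 8.07 with hairpin 1, 7.87 to 7.90 with hairpin 2 and 7.67 to 7.78 with luciferase. The list's median difference for both hairpins was 0.07. Cdx2, which defines that lineage, was at 7.96 and 7.89 with hairpin 1, at 8.04 and 7.97 with hairpin 2, and at 8.17, 8.01 and 7.92 with luciferase (-0.07; adjusted p = 0.676).

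**Figure D4:**
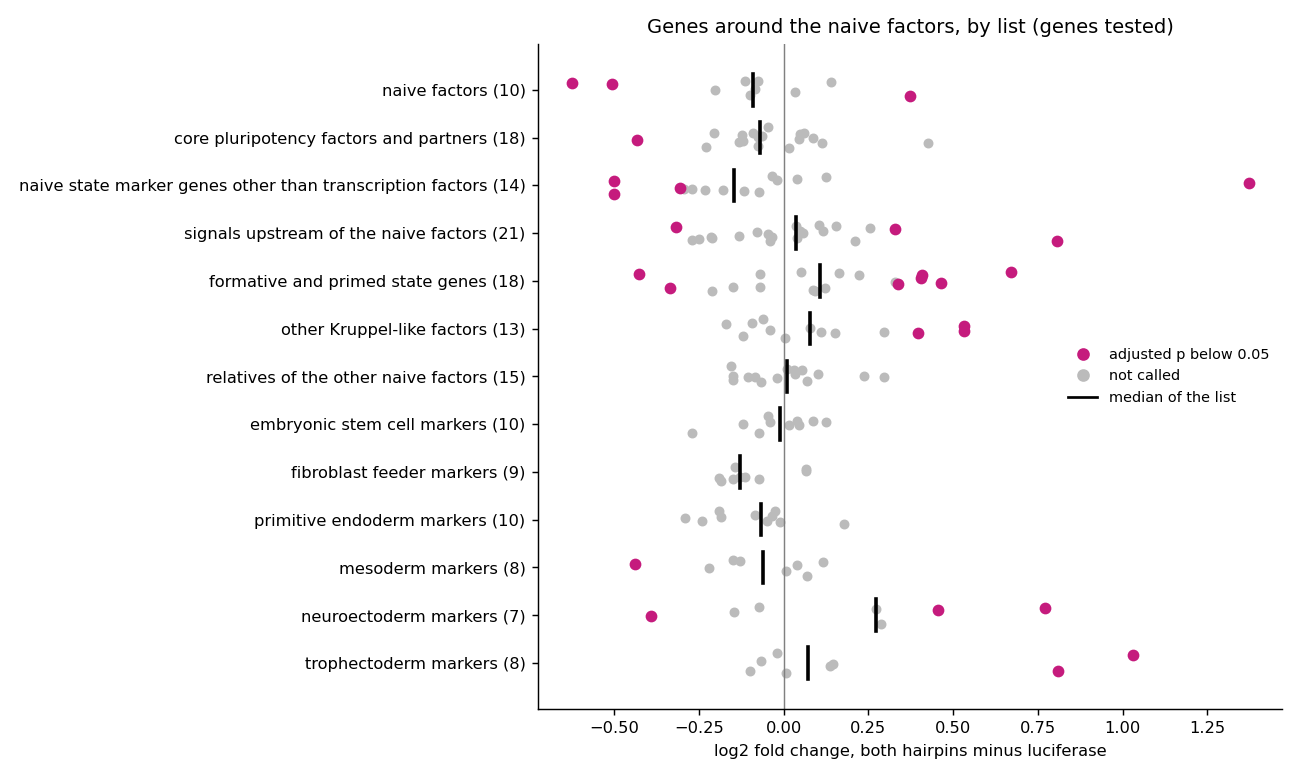
Log2 fold change of both hairpins minus luciferase for each gene tested in each list, with the number of genes in brackets, called genes in colour and a black line at each list's median. The naive factors span -0.62 (Tbx3) to 0.37 (Klf2) around a median of -0.09, and the points farthest to the right are Dppa3 (1.37) and Krt18 (1.03).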

How the data were processed

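RNA of 7 samples (3 luciferase, 2 hairpin 1, 2 hairpin 2) was measured on 1 array each. The authors deposited log2 expression values for 1201338 probe sets, made with RMA and R 2.11.1 per the submitters' processing notes. Not given in the sources used here are the RMA package, probe set definition, annotation build, detection p-values, slides and scan dates, so scan batches were not examined. Because RMA gives arrays one distribution, a shift of most transcripts one way cannot show.

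Symbols came from the platform annotation (311384 probe sets with 1 symbol, 6385 with several, 883569 with none), updated for 45560 probe sets through RefSeq synonyms (GRCm38.p6); 834 stayed outside that table. Chromosomes came from the same table. Gene values are medians, per array, of single-symbol probe sets whose mean over the 7 arrays exceeded the median of all probe sets (6.02), with at least 3 required. This left 229811 probe sets and 16353 genes. The fit used limma 3.58.1 (lmFit, eBayes; R 4.3.3) on all 7 arrays with 1 mean per group, and p-values were Benjamini-Hochberg adjusted over all genes; all adjusted p-values and intervals given are from limma. Exon usage was tested with diffSplice, and the procedure was tested on simulated data. Promoter windows came from RefSeq; 7 of the 10 factors had one. All 10 factors are named, with Mettl3, up to 4 called genes of each list with the largest change (the 2 largest differences where none was called), and the 3 genes most like each called factor. Pou5f1, Sox2, Stat3, Lifr, Otx2 and Cdx2 were named as textbook genes after their values were seen. Predicted genes and clones were skipped in naming. Where genes are counted at an unadjusted p below 0.05, no share over all genes is at hand. The members, lists and tests were chosen with earlier results of these data known. Replicate numbers were not used to pair the samples in the main fit. Deviations of same-numbered arrays correlated between -0.26 and 0.08. Those of differently numbered arrays of different groups correlated between -0.28 and 0.28. In a group of 2 arrays the deviations mirror each other, so few of these values are independent and they cannot settle whether samples were paired. Apart from the crossed block given below, other pairings were not fitted, and whether samples shared a batch was not tested. Alternatives were no filter or a stricter one on brightness (the 75th percentile of all probe sets, 7.57), a mean or median polish of probe sets, quantile normalization, centring, trended robust spreads, replicate blocks, fewer groups, probe sets fitted singly, and each array left out.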

Additional observations from a re-analysis of the deposited data

Results flagged for a closer look

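Klf4 lay on opposite sides of luciferase with the 2 hairpins: every hairpin 1 array was below and every hairpin 2 array above all luciferase arrays. Such separation from luciferase was seen for 38.2% of all genes with hairpin 1 and 38.3% with hairpin 2, and neither hairpin alone passed limma's test for Klf4 (adjusted p = 0.305 and 0.191). The difference of hairpin 1 minus hairpin 2 was -0.41 on the log2 scale, and limma's test of that difference gave an adjusted p = 0.263 over all genes. In the 17 alternatives it lay between -0.47 and -0.34, with adjusted p of 0.101 to 0.696.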

How the results depend on the processing

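Tbx3 (-0.70 to -0.58) and Gbx2 (-0.56 to -0.38) were called for both hairpins in all 16 alternatives, and Klf2 (0.28 to 0.42) in 8 of 16. With probe sets fitted singly, an alternative chosen after seeing the data that counts a factor where most of its probe sets were called, 1 factor was called for both hairpins, 1 for hairpin 1 and 0 for hairpin 2. Differences near 0 changed sign: Klf4 (0.03) was at -0.021 with the mean of probe sets, -0.037 with median polish and -0.024 with centring, and at -0.00094 to 0.065 with 1 array left out (below 0 without hairpin 1 replicate 1); Klf5 (-0.07) was at 0.0036 without the filter; Zfp42 (0.14) was at -0.025 with the mean and -0.015 with median polish. The cause was not tested.

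Of 1292 genes called for both hairpins, 964 for hairpin 1, 619 for hairpin 2 and 17 between hairpins, the counts without the filter on dim probe sets were 484, 320, 92 and 0. They were 2840, 2259, 1626 and 79 with the mean of probe sets, and 2469, 2072, 1439 and 76 with median polish. The stricter filter gave 1503 for hairpin 1, 1073 for hairpin 2 and 34 between hairpins. Trended robust spreads gave 29 between hairpins, and the groups compared alone gave 2. For exon usage the main fit called 813 genes, and the counts with 1 array left out lay both below and above that. Centring changed the split for both hairpins to 696 higher and 703 lower (904 and 388 without it), for hairpin 1 to 578 and 566 (649 and 315) and for hairpin 2 to 326 and 256 (443 and 176), with a shift of -0.06 in the median of all genes. With 1 array left out, where a lone hairpin array is assumed to vary like the other groups, 605 to 1098 genes were called for both hairpins, 271 to 729 for hairpin 1, 63 to 577 for hairpin 2, 0 to 4 between hairpins and 281 to 944 (of 813) for exon usage.

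Naive factors called with hairpin 1 (2 of 10) were 1 without the filter, 4 with the stricter filter, 5 with the mean, 5 with median polish and 4 with trended robust spreads. Calls over all genes moved too, as given above. With hairpin 1 they fell without the filter and rose with the stricter filter, the mean and median polish. Naive factors called with hairpin 2 (3 of 10) were 0 without the filter, where calls over all genes also fell, and 1 with the groups compared alone. Between hairpins (0), median polish called 1, Prdm14 (adjusted p = 0.0469, limma). With 1 array left out, 2 to 3 factors were called for both hairpins, 1 to 2 for hairpin 1 and 0 to 2 for hairpin 2. With the replicate block, in which luciferase replicate 3 has a number of its own and drops out, 540 genes were called for both hairpins, 460 for hairpin 1, 208 for hairpin 2, 3 between hairpins and 261 for exon usage; 1 factor was called with hairpin 1, 0 with hairpin 2, and Klf2 lost its call for both hairpins (adjusted p = 0.127). The replicate numbers are only numbers here. A crossed block, chosen after seeing the data, called 956, 858, 423 and 3 genes, and 1 factor with hairpin 2.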
